A study of Mus musculus with 6 samples.

Results

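The 10 genes described here make the enzymes and the chaperone that turn newly made collagen chains into stable, cross-linked fibres: the catalytic subunits of the collagen prolyl 4-hydroxylases (P4ha1, P4ha2, P4ha3), the lysyl hydroxylases (Plod1, Plod2, Plod3), the collagen chaperone HSP47 (Serpinh1) and 3 lysyl oxidases (Lox, Loxl2, Loxl3). They were taken by symbol from a table of 23867 genes, where all 10 were found, and all 10 passed the filter on low counts that left 15028 genes. Bulk RNA sequencing had been done on chondrocytes, the cells that build cartilage, from MFN2Col2a1-/- mice (knockout; 3 libraries, CRE1 to CRE3) and from MFN2wt mice (wild type; 3 libraries, WT1 to WT3). The label pairs loss of Mfn2, a mitochondrial fusion protein that also sits at contacts with the endoplasmic reticulum, with the cartilage collagen gene Col2a1. The labels give neither the age, sex or joint of the mice nor the driver of the deletion, and leave it unsaid if each library is a separate mouse, so p-values measure only the spread among these libraries.

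Collagen is modified in the endoplasmic reticulum before it folds. Prolyl 4-hydroxylases hydroxylate proline, which the triple helix needs to stay folded at body temperature, and lysyl hydroxylases hydroxylate lysine, which sets where sugars and cross-links attach. Both use oxygen, iron, 2-oxoglutarate and ascorbate. HSP47 then binds the folded helix and leaves it in the Golgi, and outside the cell the copper-dependent lysyl oxidases oxidise lysine and hydroxylysine to start the cross-links of collagen and elastin. Cartilage has no blood vessels, and several of these genes are known targets of the hypoxia factor HIF-1: P4ha1, P4ha2, Plod2, Lox and Loxl2 are counted here as hypoxia-induced on textbook grounds, and P4ha3, Plod1, Plod3, Loxl3 and Serpinh1 as the others. That split was made with earlier results of these data known.

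Library totals were 31481779 to 37814723 counts in knockout cells and 39267487 to 40152687 in wild-type cells. Mfn2 itself was lower in every knockout library, at 60.0 ± 3.78 CPM (read counts scaled to a common library size) against 107 ± 0.937 CPM in wild-type cells (SD, n = 3 each). All 10 chondrocyte markers were detected. In knockout cells 9 of them were lower (32.1% of all genes tested were), while Prg4 was at least 2-fold higher (7.73% were). Macrophage markers were also present: their summed level over 12 genes was 314 to 325 CPM in knockout cells and 2856 to 2884 CPM in wild-type cells, none was at 0, and all 12 fell. The fibroblast list of 10 genes summed to 9136 to 9632 CPM in knockout cells and 4450 to 4579 CPM in wild-type cells. Most of that sum was Dcn in knockout cells, at 6566 ± 226 CPM against 2048 ± 46.6 CPM in wild-type cells. Of the list's 9 tested genes, 3 were higher (30.7% of all genes tested were) and 5 lower (32.1% were). Their median log2 fold change was -0.09. The part of these markers in the changes of the collagen-modifying genes was not tested, and in bulk samples fewer cells of a type and less RNA per cell cannot be told apart.

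Every one of the 10 genes changed, with 7 higher and 3 lower in knockout cells (edgeR's quasi-likelihood test, Benjamini-Hochberg adjusted p under 0.05), and the 2 groups of libraries overlapped for none of them. Such calls were common: 62.7% of all genes tested were called, 30.7% as higher and 32.1% as lower, and 67.1% had groups that did not overlap. Only Loxl2 rose at least 2-fold (7.73% of all genes did) and only P4ha3 fell at least 2-fold (12.0% did). The median log2 fold change of the 10 genes was 0.53, against -0.02 over all genes tested. The split between rises and falls over all genes depended on scaling: without TMM factors (the scaling for RNA composition used throughout), 18.6% were called higher and 50.8% lower, and log2 fold changes moved by a median of -0.21. The 10 genes then gave 6 rises and 3 falls.

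**Figure D1:**
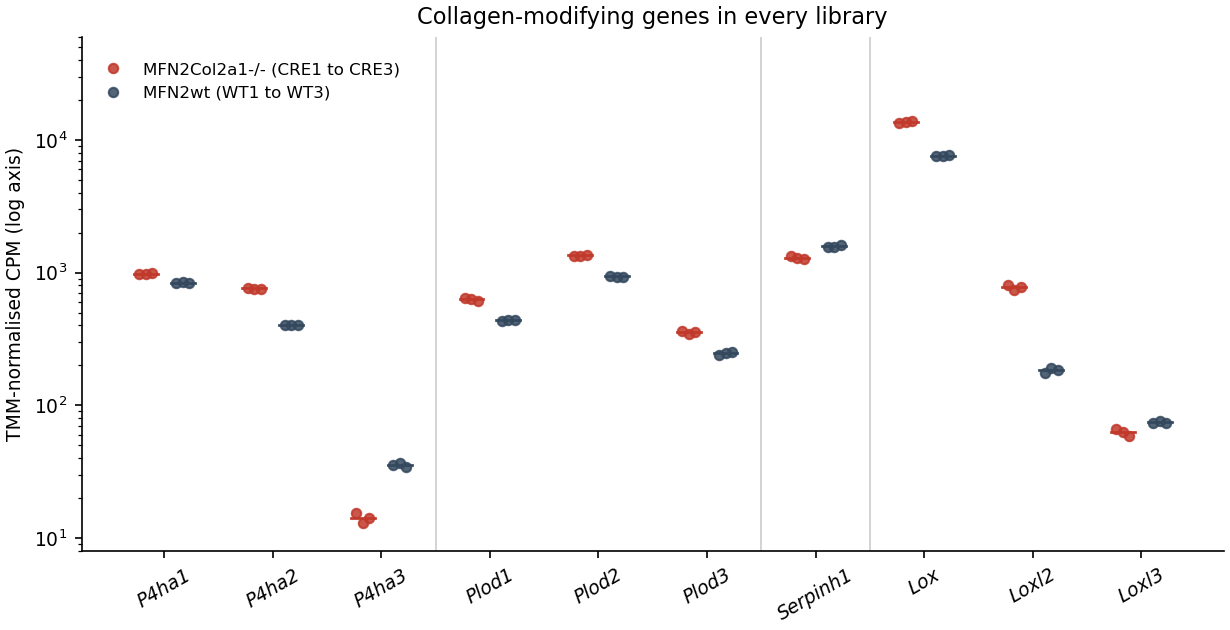
Level of each of the 10 genes in every library as TMM-normalised CPM on a log axis; points are libraries, horizontal lines are group means, red is MFN2Col2a1-/- and dark blue MFN2wt. The groups are apart for every gene, with Loxl2 (knockout 739 to 812 CPM, wild type 176 to 190 CPM) and P4ha3 (knockout 13.0 to 15.4 CPM, wild type 34.1 to 36.4 CPM) farthest apart.

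Among the prolyl 4-hydroxylase subunits, P4ha2, known as the main form of chondrocytes, rose most. It stood at 767, 756 and 759 CPM in the knockout libraries and at 401, 405 and 406 CPM in the wild-type libraries. All 3 knockout libraries were well above all 3 wild-type ones, and the log2 fold change was 0.91 (SE 0.0255, edgeR adjusted p = 5.21e-14), a 1.88-fold rise. P4ha1, the main subunit of most other cells, had 983, 976 and 992 CPM in knockout cells and 828, 846 and 838 CPM in wild-type cells. Its groups did not overlap, but the difference was small, with a log2 fold change of 0.23 (95% interval 0.18 to 0.28, edgeR adjusted p = 4.87e-07). The rise of P4ha1 rested on the scaling: without TMM factors its log2 fold change was 0.02 (edgeR adjusted p = 0.377), and its FPKM, which is scaled to total counts and gene length, averaged 222 ± 1.55 in knockout cells and 219 ± 2.54 in wild-type cells. P4ha3, a subunit of low abundance in most tissues, went the other way. It had 15.4, 13.0 and 14.2 CPM in knockout cells and 35.7, 36.4 and 34.1 CPM in wild-type cells, a log2 fold change of -1.32 (SE 0.068, edgeR adjusted p = 9.77e-11), so each knockout library was below each wild-type library.

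The make-up of the subunit pool therefore differed, and this does not depend on how libraries are scaled. P4ha2 made up 57.0% ± 0.212 of the summed FPKM of the 3 subunit genes in knockout cells and 44.2% ± 0.193 in wild-type cells (SD, n = 3 each). P4ha1 made up 42.0% ± 0.242 in knockout cells and 52.2% ± 0.119 in wild-type cells, so P4ha2 led in every knockout library and P4ha1 in every wild-type library. P4ha3 accounted for 1.01% ± 0.0795 in knockout cells and 3.66% ± 0.120 in wild-type cells. Summed over the 3 genes, the FPKM was 529 ± 0.808 in knockout cells and 419 ± 4.02 in wild-type cells.

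The 3 subunit genes moved differently, so the 250 bases before each annotated start are shown, with those of Plod3 for comparison. The letters are from RefSeq on GRCm38.p6, an earlier assembly than the GRCm39 named for the counts. The windows are chr10:59323046-59323295 (plus strand), chr11:54100674-54100923 (plus strand), chr7:100285270-100285519 (plus strand) and chr5:136986769-136987018 (plus strand), each written 5′ to 3′. Capitals mark the core letters of a hypoxia response element, ACGTG or GCGTG, searched on both strands (CACGT and CACGC when read on the other strand), with no overlap between marked matches.
P4ha1: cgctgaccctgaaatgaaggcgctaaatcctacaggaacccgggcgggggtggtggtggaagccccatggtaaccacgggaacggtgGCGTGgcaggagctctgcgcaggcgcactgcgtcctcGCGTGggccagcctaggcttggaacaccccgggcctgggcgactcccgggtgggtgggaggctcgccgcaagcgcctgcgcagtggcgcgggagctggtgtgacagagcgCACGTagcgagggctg
P4ha2: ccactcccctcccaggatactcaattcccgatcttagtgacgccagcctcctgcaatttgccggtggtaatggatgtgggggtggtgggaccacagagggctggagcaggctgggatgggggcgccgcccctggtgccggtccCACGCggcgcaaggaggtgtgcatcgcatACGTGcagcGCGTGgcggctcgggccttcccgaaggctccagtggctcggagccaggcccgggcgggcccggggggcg
P4ha3: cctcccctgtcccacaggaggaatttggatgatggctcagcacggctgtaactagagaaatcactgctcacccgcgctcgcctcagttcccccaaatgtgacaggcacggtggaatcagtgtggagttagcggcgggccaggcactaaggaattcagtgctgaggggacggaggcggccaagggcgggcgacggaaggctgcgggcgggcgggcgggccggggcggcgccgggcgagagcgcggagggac
Plod3: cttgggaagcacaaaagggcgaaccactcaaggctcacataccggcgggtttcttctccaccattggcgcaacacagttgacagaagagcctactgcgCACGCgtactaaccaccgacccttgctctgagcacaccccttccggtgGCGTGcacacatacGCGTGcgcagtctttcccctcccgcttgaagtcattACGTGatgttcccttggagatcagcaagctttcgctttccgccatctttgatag
The windows of P4ha1 and P4ha2 each hold 3 matches, that of P4ha3 holds 0, and that of Plod3, which is not on the hypoxia-induced list, holds 4. Windows were searched for 6 of the 10 genes, and Plod1 and Serpinh1 had 1 match each. Those of Plod2, Lox, Loxl2 and Loxl3 were not searched, so most of the hypoxia-induced list is not covered. Such short letters are common: 38.6% of 32851 promoter windows of this length hold at least 1 and 6.58% hold at least 3. Among the 9178 windows with a GC content of at least 60% these shares are 63.8% and 15.6%, and the windows of P4ha1, P4ha2 and P4ha3 have 69.6%, 70.0% and 67.2% GC. A match is a description of the letters and does not show that a factor binds there.

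The 3 lysyl hydroxylases rose by nearly the same amount. Plod2, the enzyme that hydroxylates the telopeptides at the ends of collagen and a known hypoxia target, had 1340, 1342 and 1364 CPM in knockout cells and 951, 929 and 933 CPM in wild-type cells. Plod1, which hydroxylates lysines within the helix, had 648, 629 and 609 CPM in knockout cells and 431, 441 and 437 CPM in wild-type cells. Plod3, which also carries an activity that adds glucose to collagen, had 366, 342 and 356 CPM in knockout cells and 239, 246 and 254 CPM in wild-type cells. In each gene the lowest knockout library was above the highest wild-type library. The log2 fold change was 0.52 (95% interval 0.47 to 0.57) for Plod2, 0.53 (0.47 to 0.59) for Plod1 and 0.53 (0.46 to 0.60) for Plod3, each a 1.44-fold rise, and the largest of the 3 edgeR adjusted p-values was 1.61e-09. Unlike for the prolyl hydroxylases, the shares of the pool overlapped between the groups. Plod1 took 43.5% ± 0.841 of the summed FPKM in knockout cells and 43.5% ± 0.360 in wild-type cells, Plod2 took 32.1% ± 0.743 in knockout cells and 32.2% ± 0.613 in wild-type cells, and Plod3 took 24.4% ± 0.547 in knockout cells and 24.3% ± 0.550 in wild-type cells. Without TMM factors each of the 3 rises was smaller, at a log2 fold change of 0.32 for each, and was still called.

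**Figure D2:**
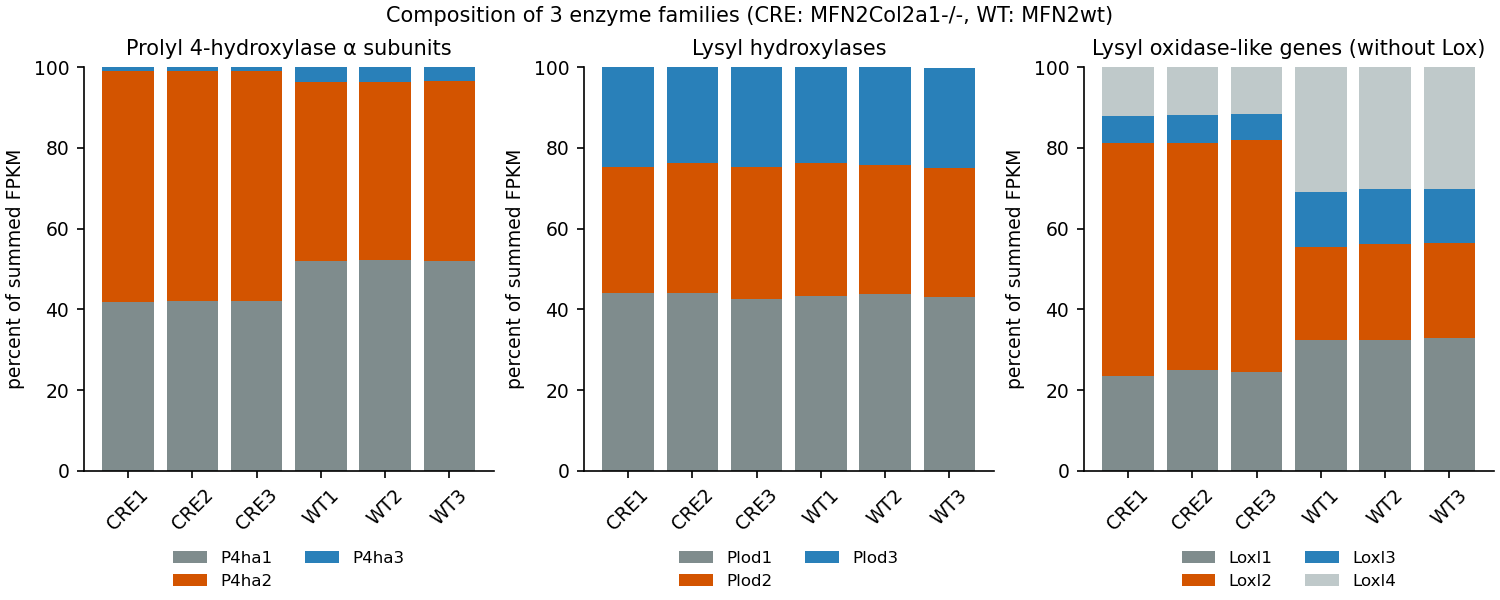
Share of each gene in the summed FPKM of its family, in percent, for every library (knockout CRE1 to CRE3 left of wild type WT1 to WT3). P4ha2 takes 56.8 to 57.2% in knockout cells against 44.0 to 44.4% in wild-type cells, the lysyl hydroxylases keep their shares, and Loxl2 takes 56.3 to 57.8% of the lysyl oxidase-like genes in knockout cells, against 23.0 to 23.6% in wild-type cells.

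HSP47 fell. Serpinh1 had 1341, 1289 and 1265 CPM in knockout cells and 1572, 1572 and 1612 CPM in wild-type cells. The knockout libraries were all below the wild-type ones, with a log2 fold change of -0.29 (SE 0.0262, edgeR adjusted p = 1.1e-07), or 0.819 times the wild-type level. It was no longer called in a test against a 1.2-fold change (adjusted p = 0.138). Per length, the ratio of Serpinh1 to P4ha2 was 1.73 ± 0.0413 in knockout cells and 3.97 ± 0.0460 in wild-type cells, and the ratio of Serpinh1 to Plod2 was 3.92 ± 0.149 in knockout cells and 6.89 ± 0.151 in wild-type cells (FPKM, SD, n = 3 each).

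Lox was by far the most abundant of the 10 genes, 16th in mean FPKM among all 23867. It had 13510, 13775 and 13805 CPM in knockout cells and 7626, 7577 and 7684 CPM in wild-type cells. Every knockout library was higher, with a log2 fold change of 0.84 (SE 0.0185, edgeR adjusted p = 2.65e-15), a 1.80-fold rise. Lox alone took 1.27% ± 0.0219 of all counts in knockout cells and 0.820% ± 0.00641 in wild-type cells. Loxl2, a lysyl oxidase that carries scavenger receptor domains and acts on basement membrane collagen, had the largest change of the 10 genes. It stood at 812, 739 and 784 CPM in knockout cells and at 176, 190 and 186 CPM in wild-type cells. The groups were far apart, with a log2 fold change of 2.08 (SE 0.0384, edgeR adjusted p = 3.54e-16), a 4.23-fold rise.

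Loxl3, a close relative of Loxl2, was lower in knockout cells. It had 66.0, 63.0 and 58.9 CPM in knockout cells and 73.3, 76.2 and 73.4 CPM in wild-type cells, close but not overlapping, with a log2 fold change of -0.25 (SE 0.0472, edgeR adjusted p = 3.05e-04). It was not called against a 1.2-fold change (adjusted p = 0.615). The other 2 genes of the family also went opposite ways: Loxl1, which is needed for elastic fibres, rose (log2 fold change 0.36, SE 0.0338) and Loxl4 fell (-0.57, SE 0.0373). Setting Lox aside, Loxl2 made up 57.2% ± 0.783 of the summed FPKM of the lysyl oxidase-like genes in knockout cells and 23.4% ± 0.361 in wild-type cells. Loxl4 made up 11.8% ± 0.218 in knockout cells and 30.4% ± 0.390 in wild-type cells. With Lox included, Lox held 92.5% ± 0.310 of the family in knockout cells and 92.2% ± 0.186 in wild-type cells, a difference within the spread.

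Opposite-strand genes share exon bases with some members, which matters because no strand setting is given in the sources used here. In an annotation of the preceding assembly, Plod3 shares 16.1% of its exon bases with Znhit1 and Loxl3 shares 13.1% with Htra2. The highest count of Znhit1 in any library was 1713 and that of Htra2 was 1170. Without the strand setting it is not known how reads of Plod3 and Loxl3 in these stretches were assigned, and the effect was not tested. Loxl2 shares 5.57% with the antisense gene Gm27177, whose highest count was 14. Plod2 shares 9.32% with Gm38391 and Lox 0.63% with AC161119.1, neither of which is listed by that symbol among the genes counted. P4ha1, P4ha2, P4ha3, Plod1 and Serpinh1 share no exon bases with another gene there.

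The medians of the 5 hypoxia-induced genes and of the 5 others differed in sign, though single genes of the 2 lists overlapped in their changes. All 5 hypoxia-induced genes rose (30.7% of all genes tested did), and their log2 fold changes had a median of 0.84. With total counts, against a 1.2-fold change and on the 3 FPKM scales 4 of the 5 were called, without P4ha1, and with total counts 18.6% of all genes rose. Of the others, 2 rose and 3 fell (32.1% of all genes tested fell), and the median was -0.25. Against a 1.2-fold change 2 of the others rose and 1 fell, as Loxl3 and Serpinh1 lost their calls, beside 2724 rises and 3132 falls over all genes. Centred on the wild-type mean, the median of the hypoxia-induced genes was 0.82, 0.85 and 0.86 on the log2 scale in CRE1, CRE2 and CRE3, and that of the others was -0.17, -0.24 and -0.33. The wild-type libraries lay between -0.02 and 0.02 in both lists. The difference between the list medians was 1.09, and 0.95 with Plod1 counted as hypoxia-induced. It is given without a test, since genes are not replicates. The lists were not clean blocks: P4ha1 rose less than Plod1 and Plod3, and Plod2 rose as much as those genes did.

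**Figure D3:**
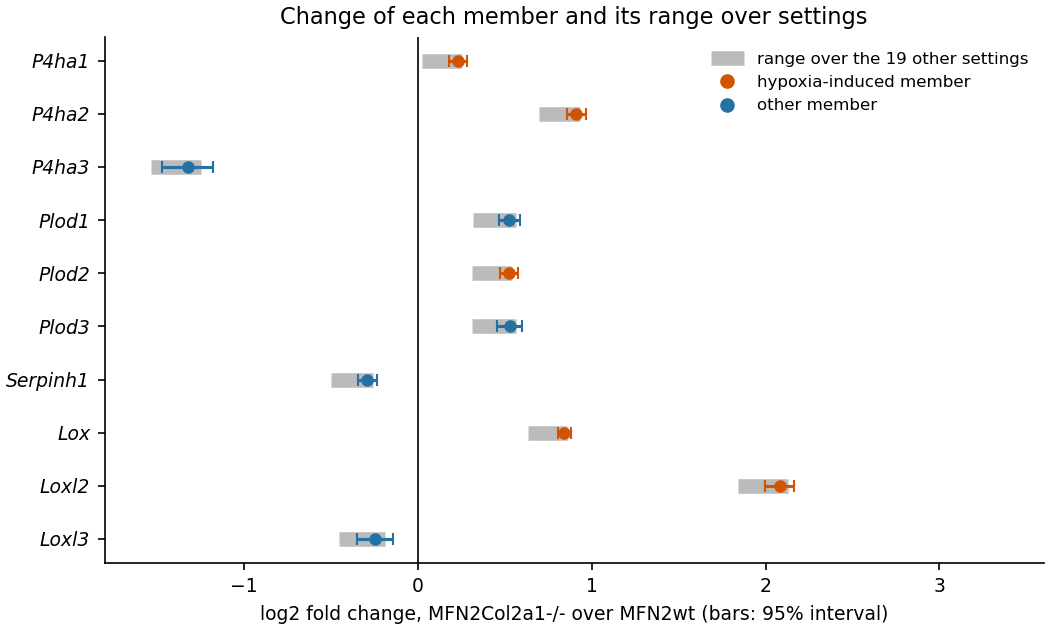
Log2 fold change of each gene, MFN2Col2a1-/- over MFN2wt, with its 95% interval (points and bars), and the range over 19 other settings (grey). Orange marks the hypoxia-induced genes and blue the others; no gene changes sign, and P4ha1 comes closest to 0, at 0.02.

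All 18 genes on a list of other hypoxia targets rose (30.7% of all genes tested did), with a median log2 fold change of 1.40. Of these, 13 rose at least 2-fold (7.73% of all genes did). Without TMM factors all 18 were still called higher, where 18.6% of all genes were. Of the 5 hypoxia-induced collagen genes, only Loxl2 exceeded that median. The smallest p-values in the list were those of Ero1a, an oxidase that makes disulfides in the endoplasmic reticulum (1096 ± 12.8 CPM in knockout cells and 291 ± 0.607 CPM in wild-type cells, log2 fold change 1.92), the lactate dehydrogenase Ldha (1.44) and Egln1 (1.90), the oxygen-sensing hydroxylase that marks HIF for destruction.

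Of 13 partner genes of hydroxylation, glycosylation and folding, 5 rose and 6 fell (median log2 fold change 0.03), where 30.7% of all genes rose and 32.1% fell. The rises numbered 3 once WT2 was left out. Without TMM factors 2 rose and 10 fell, where 18.6% of all genes rose and 50.8% fell. P4hb, the protein disulfide isomerase that forms the other subunit of prolyl 4-hydroxylase, rose (2699 ± 53.1 CPM in knockout cells and 1815 ± 13.6 CPM in wild-type cells, log2 fold change 0.57, SE 0.0228). Tmem38b, an ion channel of the endoplasmic reticulum whose loss in people impairs collagen hydroxylation, rose 3.01-fold (log2 fold change 1.59, SE 0.0639). P3h2, which hydroxylates proline at another position and mainly in basement membrane collagen, fell (17.9 ± 0.613 CPM in knockout cells and 50.8 ± 1.59 CPM in wild-type cells, log2 fold change -1.50, SE 0.0538). These 3 genes kept their direction and their call in the other 19 settings.

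Of the genes that supply cofactors, 6 of 7 tested rose (30.7% of all genes did). Without TMM factors 4 of the 7 rose (18.6% of all genes did) and 1 fell, and on log2(FPKM + 1) 3 rose and 1 fell. The ascorbate transporter Slc23a2 stood at 213 ± 9.96 CPM in knockout cells and 101 ± 4.32 CPM in wild-type cells (log2 fold change 1.08, SE 0.0424). The glucose transporters Slc2a1 (1.86) and Slc2a3 (2.17), which also carry oxidised ascorbate, rose as well, and Slc2a1 is itself a known hypoxia target. Slc23a1, the other ascorbate transporter, had 0 counts in each knockout library and 0 to 2 in the wild-type libraries and was not tested. The copper importer Slc31a1, named after its values were seen, was not called, with 71.6 ± 2.92 CPM in knockout cells and 73.3 ± 2.40 CPM in wild-type cells.

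Secretion and propeptide removal had no called rise with all libraries: of 12 genes, 0 rose (30.7% of all genes did) and 4 fell in edgeR's test, a share of falls near the 32.1% over all genes. Without TMM factors 0 rose and 10 fell, where 18.6% of all genes rose and 50.8% fell. At an unadjusted p under 0.05 edgeR also gave 0 rises, DESeq2 and limma-voom called 0, and 1 rise was called once CRE1 was left out. Pcolce2, an enhancer of procollagen processing (log2 fold change -1.18), the transcription factor Creb3l1 (-0.59) and the proteinase Tll1 (-1.36) fell. Bmp1, the main proteinase that removes the C-terminal propeptide, was named after its values were seen and had 110 ± 0.888 CPM in knockout cells and 111 ± 1.16 CPM in wild-type cells and was not called.

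**Figure D4:**
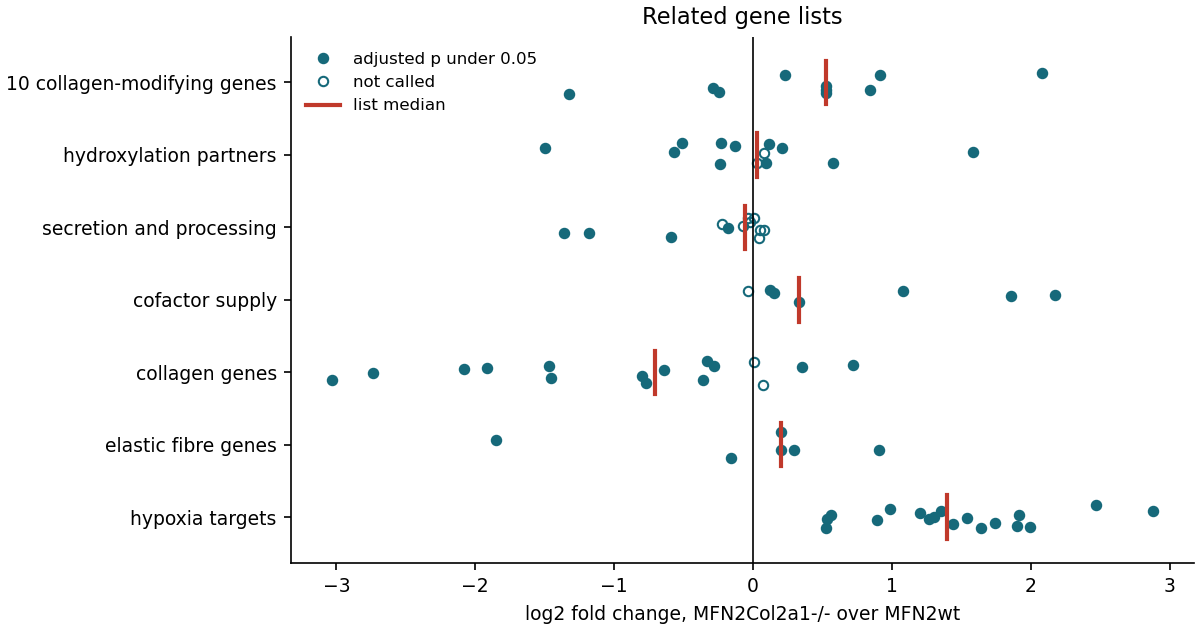
Log2 fold change of each tested gene, MFN2Col2a1-/- over MFN2wt, for the 10 collagen-modifying genes and 6 related lists; filled points passed an adjusted p under 0.05 and red bars are list medians. The hypoxia targets all lie to the right of 0 (median 1.40), while the collagen genes have a median of -0.71.

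The collagens on which these enzymes act mostly fell. Of 16 collagen genes, 12 fell and 2 rose (median log2 fold change -0.71), where 32.1% of all genes fell and 30.7% rose. Without TMM factors 14 fell and 2 rose, where 50.8% of all genes fell and 18.6% rose. Against a 1.2-fold change 9 fell and 2 rose, beside 3132 falls and 2724 rises over all genes. The smallest p-values were those of 3 cartilage chains, Col2a1 at -2.74, Col9a1 at -1.91 and Col11a1 at -1.45. The largest fall of the 16 was that of Col27a1 (-3.03), another cartilage collagen, while the cartilage chains Col9a2 (-0.33) and Col9a3 (-0.36) fell less. The 2 that rose were Col3a1 (0.72) and Col5a2 (0.35), and Col1a1 was not called (4672 ± 227 CPM in knockout cells and 4651 ± 87.9 CPM in wild-type cells); these and Col27a1, Col9a2 and Col9a3 were named after their values were seen. Of 6 elastic fibre genes, 4 rose (30.7% of all genes did) and 2 fell (32.1% did). Without TMM factors 1 rose (18.6% of all genes did) and 2 fell (50.8% did). Mfap5, a microfibril protein, rose (0.90) and Eln, the elastin gene, fell (-1.85, with 1.85 ± 0.412 CPM in knockout cells and 6.67 ± 0.161 CPM in wild-type cells), while the rise of Efemp2 (0.20) turned to -0.01 without TMM factors.

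Set against collagen transcript, the enzymes were more abundant in knockout cells, while HSP47 was close to level. Per 100 FPKM of the 16 collagen genes, the lysyl oxidases had 64.4, 69.5 and 69.0 FPKM in knockout cells and 32.6, 31.9 and 33.0 FPKM in wild-type cells. Every knockout library was above every wild-type library, by 2.08-fold on average. The prolyl 4-hydroxylase subunits had 12.5 ± 0.353 in knockout cells and 7.35 ± 0.0686 in wild-type cells, and the lysyl hydroxylases had 9.72 ± 0.172 in knockout cells and 5.81 ± 0.0831 in wild-type cells. Serpinh1 had 12.2, 12.5 and 12.1 in knockout cells and 12.9, 12.6 and 13.2 in wild-type cells, groups that come close without overlapping. The collagen sum itself was 4249 ± 120 FPKM in knockout cells and 5703 ± 73.4 FPKM in wild-type cells. The outcome for Serpinh1 depended on which collagens were summed, a choice made after seeing the data: over Col1a1, Col1a2 and Col3a1 alone its ratio in knockout cells was 0.779 times that of the wild type, and over 6 cartilage collagen genes, whose sum was 214 ± 4.68 FPKM in knockout cells and 1096 ± 20.5 FPKM in wild-type cells, it was 3.62 times. The enzyme families were higher in knockout cells with either sum, by 1.37 to 1.70 times over the type I and III genes and by 6.37 to 7.92 times over the cartilage genes.

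**Figure D5:**
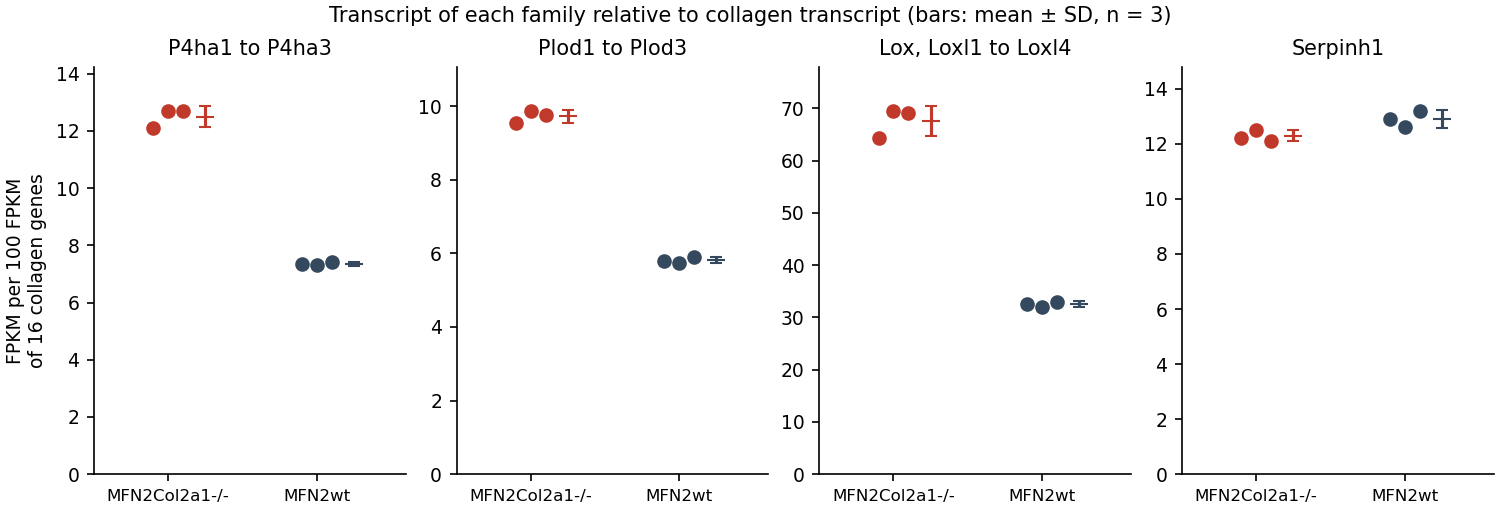
Summed FPKM of each family per 100 FPKM of 16 collagen genes, MFN2Col2a1-/- left of MFN2wt; points are libraries and bars are mean ± SD (n = 3). The 3 enzyme families are higher in each knockout library, and Serpinh1 lies at 12.1 to 12.5 in knockout cells, against 12.6 to 13.2 in wild-type cells.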

How the data were processed

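Per the labels' protocols, RNA was taken up in TRIzol and libraries were built using VAHTS Universal V6 reagents. GRCm39 and the tools fastp, HISAT2 and HTSeq are listed in the submitters' processing notes. Versions, strand and annotation were not given in the sources used here. In 6 columns, the authors deposited raw read counts per gene and FPKM values for 23867 gene symbols. Tested on the 10680 genes with at least 100 counts in each library, the FPKM that the authors deposited is the count scaled by its column's sum and by 1 length per gene. Knockout columns show their group but not which sample they hold.

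Counts were tested in R 4.3.3 by edgeR 4.0.16 (two-sided quasi-likelihood test, group alone, TMM, filterByExpr with a minimum count of 10), with Benjamini-Hochberg adjustment over 15028 genes. CPM use TMM-scaled library sizes, intervals are 95%, and SE is the log2 fold change over the square root of F. Replicates differed beyond sampling noise (chi-square per degree of freedom 3.19 to 8.09). The test was also run on simulated counts in which few genes changed, with rises and falls balanced. That setting differs from these data and cannot check the scaling. Composition and collagen ratios used FPKM, since levels of different genes compare only per length.

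The 10 genes, the hypoxia split and the lists were chosen with earlier results of these data known. The lists were hydroxylation partners, other lysyl oxidases, secretion and processing, cofactor supply, collagens, elastic fibres, hypoxia targets and markers of chondrocytes, macrophages, fibroblasts, osteoblasts, endothelium, smooth muscle and dissociation. Named were the 10 genes, Mfn2, the 3 smallest p per list, genes at 0 in 1 group and the 5 genes nearest in profile. Results were recomputed in 19 other ways: limma-voom (limma 3.58.1), DESeq2 1.42.0 and its size factors, upper-quartile factors, total counts alone, library sizes without the 20 most abundant genes, no filter, a 1.2-fold threshold, at least 3 libraries over 1 CPM, limma on log2(FPKM + 1) and log2(FPKM + 0.1) with a mean FPKM of at least 1, log2(FPKM + 1) without that filter, a replicate block, and each library left out.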

Additional observations from a re-analysis of the deposited data

How the results depend on the processing

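No member changed sign in any of the 19 other settings. Of the calls of the 10 genes, those of P4ha2, P4ha3, Plod1, Plod2, Plod3, Lox and Loxl2 held in all 19. P4ha1 lost its call with total counts, against a 1.2-fold change (adjusted p = 0.969) and on the 3 FPKM scales (adjusted p = 0.350 to 0.358). Against a 1.2-fold change only 1 member was called lower. Over all genes, the rises numbered 2789 with total counts, 2724 against a 1.2-fold change, 2354 on log2(FPKM + 1), 2345 on log2(FPKM + 0.1) and 2706 on log2(FPKM + 1) without the filter. The falls numbered 7627 with total counts, 3132 against a 1.2-fold change and 7328 on unfiltered log2(FPKM + 1). For the split by hypoxia, the difference was 1.04 to 1.14 with each library left out and 0.953 with Plod1 moved. With type I and III collagen genes alone, log2 of the ratio to collagen, knockout minus wild type, was 0.474 for prolyl 4-hydroxylase subunits, 0.455 for lysyl hydroxylases, 0.769 for lysyl oxidases and -0.36 for HSP47. With cartilage collagen genes alone it was 2.69, 2.67, 2.99 and 1.86 for the same families, a reversal for HSP47, against 0.761, 0.742, 1.06 and -0.073 over all 16; these sums were chosen after seeing the data.

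A replicate block, using the digit that closes each column's name, gave 7 members higher and 3 lower, 4437 and 4657 genes in all, and a difference of 1.09 between the hypoxia lists. Same-numbered libraries showed no clear shared deviation (correlations -0.0857, 0.0553 and -0.0954), and not every library correlated best with its own number. With 3 libraries per group this cannot show that no pairing exists. P4ha3 and Loxl3, the members with the fewest counts, have the largest SEs.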

Other observations

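The genes whose profile over the 6 libraries lay nearest to the median profile of the hypoxia-induced members, among 5573 genes with a mean log2 CPM of at least 5, were Ppard, Ivns1abp, Cdkn1a, Helb and Ppp1cc. Their root mean square distance was 0.0174 to 0.0268 on the log2 scale, and their log2 fold changes were 0.82 to 0.87. Ppard, a lipid-sensing nuclear receptor, had 53.4 ± 0.268 CPM in knockout cells and 30.1 ± 0.578 CPM in wild-type cells, and Cdkn1a, an inhibitor of the cell cycle, had 826 ± 13.3 CPM in knockout cells and 462 ± 7.36 CPM in wild-type cells (SD, n = 3 each). With 2 groups and 6 libraries such likeness mostly reflects a similar size of change.

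Marker lists give the setting of these values. Over all genes tested, 30.7% rose and 32.1% fell, and 12.0% fell at least 2-fold. Among macrophage markers Lyz2 (log2 fold change -2.94), C1qc (-5.96) and Csf1r (-4.81) fell. Among chondrocyte markers Acan (-2.85) fell with Col2a1 and Col11a1, while Prg4 rose. Among fibroblast markers Dcn (1.68) and Lum (0.69) rose and Postn (-1.13) fell. All 5 tested osteoblast markers fell, 4 of them at least 2-fold, among them Ibsp (-3.63), Alpl (-1.63) and Dmp1, which had 0 to 1 counts in knockout cells and 43 to 62 counts in wild-type cells. Without CRE2, and likewise without WT1, 3 were called, as Runx2 and Sp7 lost their calls. Sp7 also lost its call without WT3. Endothelial markers summed to 12.5 to 14.0 CPM in knockout cells and 6.64 to 8.35 CPM in wild-type cells, with Plvap (1.62) and Pecam1 (1.78) higher and Kdr (-2.50) lower, and without CRE2 or without WT1 Pecam1 lost its call. In the smooth muscle list 3 of 5 fell, Acta2 (-1.45), Cspg4 (-0.88) and Myh11 (-1.53, which lost its call without CRE2, WT1 or WT2). In the dissociation list 4 of 8 rose, among them Dusp1 (1.41), Jun (1.47) and Junb (1.73). The 4 that fell were Fos, Fosb, Egr1 and Atf3, named after their values were seen.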
